A study of Arabidopsis thaliana with 26 samples.

Results

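Transcript levels were compared between T87 cells of Arabidopsis thaliana that had been exposed to 25 µM abscisic acid (ABA) for 24 h and T87 cells exposed to the same dose for 3 h. T87 is a cell line grown as a suspension in liquid medium, without organs. The 6 arrays of the comparison, 3 at 24 h and 3 at 3 h, were taken by the labels' treatment and time from 26 arrays in 12 groups. The other groups received salicylic acid, methyl jasmonate, either of these with ABA, or ethanol, at the same 2 times. The control arrays used beside the comparison came from cells exposed to 0.6% ethanol, 2 arrays at 24 h and 2 at 3 h. The labels do not say whether the ABA cultures held ethanol too. They name no genotype other than the cell line and no separate cultures, so the p-values cover only array-to-array spread, which could be technical.

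ABA is the plant hormone of water deficit, cold and seed maturation. It binds receptors that block a group of protein phosphatases, which frees SnRK2 kinases to activate bZIP transcription factors and their target genes. Known targets are genes of late embryogenesis abundant (LEA) proteins and dehydrins, hydrophilic proteins that accumulate in drying cells and in seeds. ABA is also known to slow cell division.

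Each array held 22746 probe sets with values deposited as log2 RMA signals, between 1.77 and 13.91, and every level and difference given here is on that log2 scale unless a fold is named. At 3 h, replicates 2 and 3 of ABA were nearly the same measurement, with a correlation over probe sets of 0.9975 and an SD of their differences of 0.158. The other replicate pairs of the series had correlations of 0.9458 to 0.9885 and SDs of 0.343 to 0.735. These 2 arrays were therefore averaged and counted as 1 sample, so that ABA at 3 h has n = 2 and ABA at 24 h has n = 3. At 24 h, replicate 2 stood apart from replicates 1 and 3. It was the 24 h array nearest to the 3 h mean for 458 of the 758 probe sets called below, against 121 for replicate 1 and 179 for replicate 3. Of 13 marker genes for other plant cell types 1 was measured under its name, FMA, a factor of guard cell formation. It lay between 3.52 and 3.89 on the 24 h arrays and between 3.63 and 4.31 on the 3 h arrays.

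Between 24 h and 3 h of ABA, 480 probe sets rose (2.11% of those tested) and 278 fell (1.22%), together 758 or 3.33%, at an adjusted p under 0.05 in limma. Of these, 333 rose (1.46% of all tested) and 214 fell (0.941%) at least 2-fold. The median difference over all probe sets was -0.04. The arrays of both times did not overlap for 757 of the 758 called, while 24.2% of all probe sets had no overlap. The spread behind these calls was pooled over all 12 groups. When the ABA arrays were fitted alone, 69 rose and 54 fell. Over all probe sets 8.81% were higher and 8.14% lower at an unadjusted p under 0.05, the shares to set beside such counts given for gene lists below. Of the 7 fits that left out ABA arrays, those without 3 h replicate 2 or 3 alone kept the other array of the near-identical pair. They called 787 and 789, so a call kept there adds little. The fits without 3 h replicate 1, or without 3 h replicates 2 and 3, left ABA 3 h with 1 sample. The counts also moved with single arrays. They came to 205 and 120 without 24 h replicate 1, to 265 and 130 without 24 h replicate 3, to 200 and 259 without 3 h replicate 1, and to 1030 and 1415 without 3 h replicates 2 and 3.

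Of the called probe sets, 258 of those that rose and 153 of those that fell matched 1 gene. The largest increase among them was that of AT1G14240, an apyrase-family gene. It had levels of 8.42, 7.81 and 8.28 at 24 h, against 2.99, 3.35 and 3.18 at 3 h, a difference of 5.04 ± 0.79 (SE, adjusted p = 0.00181) or 32.9-fold. AT1G68570, a membrane transporter of the NPF family, had 9.07, 8.80 and 8.79 at 24 h, against 4.45, 4.30 and 4.02 at 3 h, a 23.9-fold rise (adjusted p = 0.00418). Both genes were at low levels on every 3 h array and on the ethanol arrays of both times, where AT1G14240 ranged from 2.83 to 3.49 and AT1G68570 from 3.74 to 4.68. AT3G03270, of the universal stress protein family, had 8.24, 6.70 and 9.43 at 24 h, against 3.92, 3.75 and 3.81 at 3 h (4.27 ± 0.55, adjusted p = 0.000374). AT3G54940, a papain-type cysteine protease, had 7.90, 6.03 and 6.88 at 24 h, against 3.38, 3.19 and 3.27 at 3 h (3.63 ± 0.34, adjusted p = 4.65e-05). In these last 2 genes replicate 2 was the lowest of the 24 h arrays, and still above all 3 h arrays.

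The other genes among the 12 largest increases included PYK10 and the oleosin gene AT2G25890, described below, and 3 genes for which no role is given here, AT4G31830 (4.14 ± 0.33), AT5G07330 (4.03 ± 0.56) and AT5G66780 (3.72 ± 0.38). AT4G23670, of the major latex protein family, rose by 4.55 ± 1.08, the sulfurtransferase gene STR18 by 3.59 ± 0.65, and the UDP-glycosyltransferase gene AT4G09500 by 3.43 ± 0.83. At 3 h AT4G23670, STR18 and AT5G66780 differed between arrays. Levels were 2.72, 5.08 and 5.34 for AT4G23670, 5.38, 7.14 and 7.13 for STR18, and 3.85, 5.66 and 5.21 for AT5G66780. Of the 12 calls, 9 held in each of the 7 fits that left out ABA arrays. AT4G23670 lost its call without 24 h replicate 1 (adjusted p = 0.089), 24 h replicate 3 (0.0996) or 3 h replicate 1 (0.284). STR18 lost its call without 3 h replicate 1 (adjusted p = 0.0899). AT4G09500 lost its call without each of 24 h replicates 1, 2 and 3, 3 h replicate 1, or 3 h replicates 2 and 3 together, with adjusted p between 0.0541 and 0.142.

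The largest decrease among matched genes was that of AT1G24600, for which no role is given here. It had 3.63, 2.80 and 3.02 at 24 h, against 7.01, 8.37 and 8.47 at 3 h, a 23.7-fold fall (-4.57 ± 0.36, adjusted p = 8.29e-06). Its 24 h levels lay beside those of the ethanol arrays, 2.84 to 2.92 at 24 h and 3.11 to 3.51 at 3 h, and only the ABA 3 h arrays were high among these 10. AT4G30460, a glycine-rich protein gene, had the same shape, with 4.15, 4.36 and 4.49 at 24 h, against 7.02, 8.28 and 8.07 at 3 h (-3.26 ± 0.33, adjusted p = 6.83e-05), and 3.27 to 3.79 on the ethanol arrays. BGLU15, a beta-glucosidase gene, had 5.37, 6.67 and 5.50 at 24 h, against 8.57, 8.89 and 8.90 at 3 h (-2.89 ± 0.55, adjusted p = 0.00722). For BGLU15 the 24 h ABA arrays were the low ones, since the ethanol arrays lay between 8.85 and 10.01.

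AT1G73600, a phosphoethanolamine methyltransferase gene of phosphatidylcholine synthesis, fell by 2.96 ± 0.40 (adjusted p = 0.00056). Its 24 h levels were 3.94, 3.77 and 3.78, against 7.87, 5.74 and 5.68 at 3 h, and without 3 h replicate 1 the difference was -1.88 and still called. TBL36, a member of the family of cell wall polysaccharide acetyltransferases, fell by 3.35 ± 0.62 (adjusted p = 0.00634, and 0.0656 without 3 h replicate 1). AT2G43620 and AT2G43610, both chitinase genes, are described with their family. AT5G53820, a LEA-related gene outside the list used here, had 5.23, 7.01 and 5.04 at 24 h, against 9.77, 9.96 and 9.74 at 3 h (-4.05 ± 0.86, adjusted p = 0.0149). It lost its call without 24 h replicate 1 (adjusted p = 0.066), 24 h replicate 3 (0.0626) or 3 h replicate 1 (0.0819).

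Of the 12 largest decreases, 5 kept their call in each of the 7 fits without ABA arrays. The 4 not described so far were AT2G16270 (-3.28 ± 0.84) and AT5G17160 (-2.90 ± 0.66), for which no role is given here, AT2G19970 (-2.94 ± 0.76), of the pathogenesis-related protein 1 family, and the WD40 repeat gene AT1G49450 (-2.86 ± 0.65). AT2G16270 and AT5G17160 lost their calls without 24 h replicate 1, 24 h replicate 3, 3 h replicate 1, or 3 h replicates 2 and 3, with adjusted p of 0.0725 to 0.174 for AT2G16270 and 0.0562 to 0.0935 for AT5G17160. AT2G19970 lost its call without 24 h replicate 1 (adjusted p = 0.155), 24 h replicate 3 (0.142) or 3 h replicate 1 (0.445), and the last of these left a difference of -1.74. AT1G49450 lost its call without 24 h replicate 2 (adjusted p = 0.0509), 24 h replicate 3 (0.1) or 3 h replicates 2 and 3 (0.0932).

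**Figure D1:**
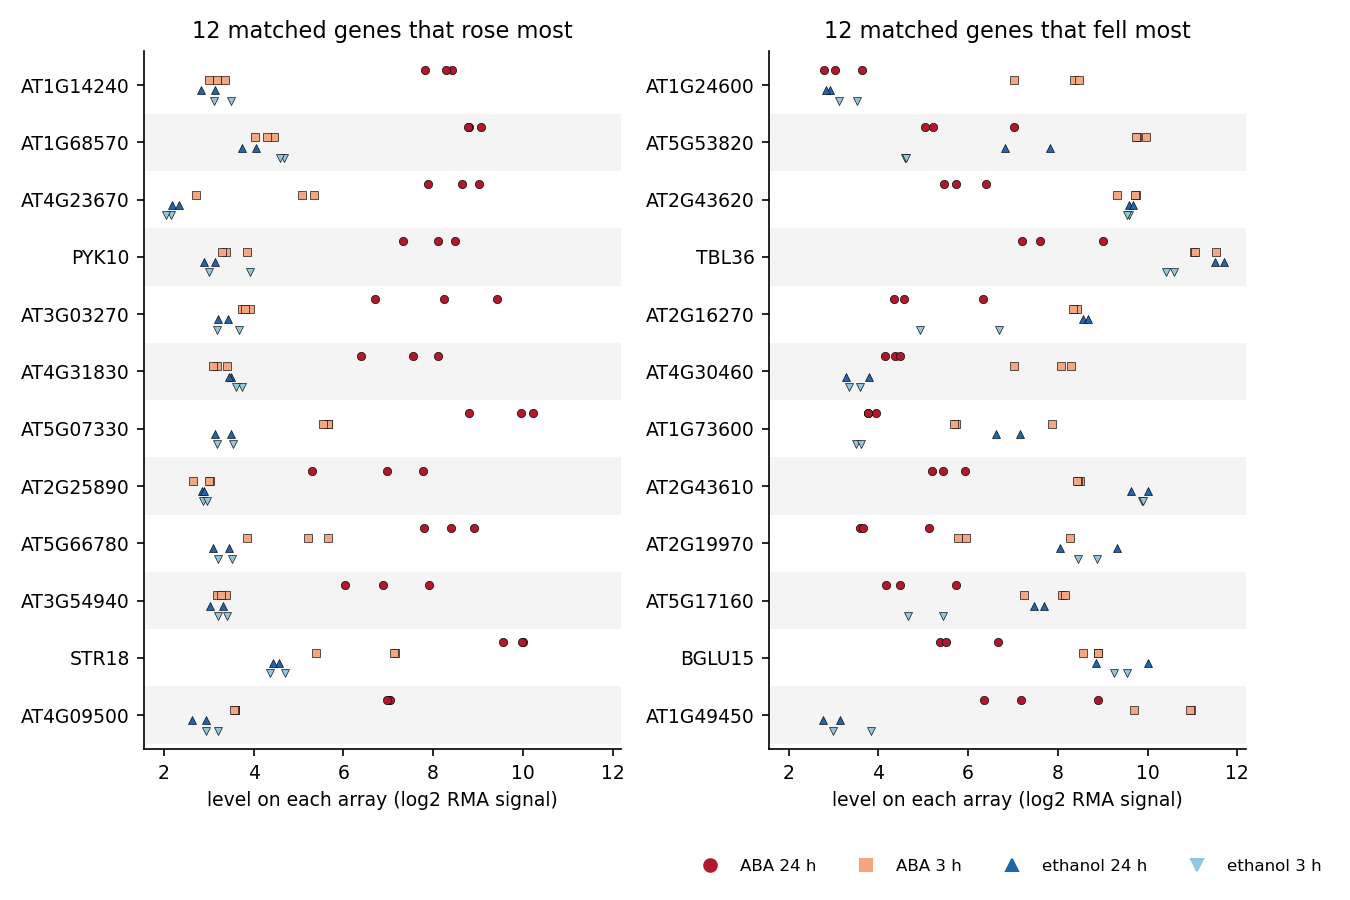
Levels (log2 RMA signal) on each array of the 12 matched genes that rose most and the 12 that fell most between ABA 24 h and ABA 3 h, with the ethanol arrays below them; each point is 1 array. AT1G14240 had 7.81 to 8.42 on the ABA 24 h arrays and at most 3.49 on all others shown, and AT1G24600 had 7.01 to 8.47 on the ABA 3 h arrays and at most 3.63 on all others shown.

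Of 20 genes of the known ABA response 7 were measured under their names. Between 24 h and 3 h, 0 of the 7 rose and 2 fell, beside 2.11% and 1.22% of all probe sets. The difference was below 0 for 5 of the 7, and for 12611 of all 22746 probe sets. The median of the 7 was -1.78 against -0.04 over all probe sets. At an unadjusted p under 0.05, 1 was higher and 4 were lower, where all probe sets had 8.81% higher and 8.14% lower. The fit of the ABA arrays alone and array weights in the fit of all groups each called 0 of the 7. The 2 that fell were COR15A and COR15B, chloroplast stroma proteins that protect membranes in the cold. COR15A had 7.95, 6.10 and 7.96 at 24 h, against 9.35, 10.44 and 10.36 at 3 h (-2.53 ± 0.63, adjusted p = 0.036). COR15B had 5.92, 4.02 and 5.77 at 24 h, against 6.70, 7.92 and 7.83 at 3 h (-2.05 ± 0.48, adjusted p = 0.0272). On the ethanol arrays COR15A lay between 3.01 and 4.70 and COR15B between 3.23 and 3.50. All ABA arrays of either time were above all ethanol arrays for both genes, with replicate 2 at 24 h the nearest. Both calls were lost without 24 h replicate 2 (adjusted p = 0.0959 for COR15A and 0.053 for COR15B) and without 3 h replicates 2 and 3 (0.125 for each). COR15A was also lost without 24 h replicate 1 (adjusted p = 0.0557) or 3 h replicate 1 (0.0667).

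The dehydrin gene LTI30 had 10.67, 8.45 and 10.02 at 24 h, against 12.09, 12.79 and 12.82 at 3 h. The times did not overlap, but the difference of -2.74 ± 0.98 did not pass the test (adjusted p = 0.15), and the ethanol arrays lay between 3.26 and 3.90. The dehydrin gene COR47 (-1.78 ± 0.94, adjusted p = 0.355) and LEA4-5 (-1.01 ± 0.36, adjusted p = 0.151) also did not pass. AT3G02480, an ABA-inducible LEA-family gene, had 12.74, 11.79 and 12.70 at 24 h, against 10.96, 11.97 and 11.96 at 3 h, and its groups overlapped (0.95 ± 0.88, adjusted p = 0.636). The highest difference of the list was that of HIS1-3, a drought-inducible linker histone, which had 8.73, 8.47 and 7.94 at 24 h, against 5.32, 6.41 and 6.38 at 3 h (2.52 ± 0.89, adjusted p = 0.145). Of the ABA metabolism list 2 genes were measured under their names, BGLU33 and UGT71B6, and 0 passed the test, with 1 lower at an unadjusted p under 0.05. No gene of the ABA signalling list, which holds the receptors, phosphatases and kinases, was matched by name, so their levels are not reported here.

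LEA and dehydrin genes moved both ways. Of 35 measured, 4 rose, 3 fell and 28 did not pass the test, where 2.11% of all probe sets rose and 1.22% fell. The median was 0.01 against -0.04 over all probe sets. The 4 that rose were AtLEA4-1, LEA (AT2G21490, a dehydrin-family gene), AT4G36600 and AT3G17520. AtLEA4-1 had 6.99, 4.80 and 6.14 at 24 h, against 2.47, 3.30 and 3.27 at 3 h (3.10 ± 0.52, adjusted p = 0.00307). Its 3 h levels were close to those of the ethanol arrays, 2.46 to 3.04, and the call held in each of the 7 fits without ABA arrays. The gene named LEA had 9.18, 7.77 and 8.72 at 24 h, against 5.04, 6.69 and 6.81 at 3 h (2.66 ± 0.62, adjusted p = 0.0265). AT4G36600 rose by 2.47 ± 0.58 (adjusted p = 0.027) and AT3G17520 by 2.05 ± 0.52 (adjusted p = 0.0374). For LEA, AT4G36600 and AT3G17520 replicate 1 at 3 h was lower than replicates 2 and 3, by more than 1 unit.

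The 3 that fell were COR15A, COR15B and AT2G46140, which had 5.76, 7.97 and 6.03 at 24 h, against 9.30, 8.86 and 8.92 at 3 h (-2.51 ± 0.57, adjusted p = 0.0216). Unlike COR15A and COR15B, AT2G46140 was as high on the ethanol arrays, with levels of 9.77 and 10.33 at 24 h, against 8.55 and 8.58 at 3 h. The counts depended on the arrays in the fit. Without 24 h replicate 1 or without 3 h replicate 1 the counts became 1 rising and 1 falling, without 24 h replicate 3 they became 1 and 2, without 24 h replicate 2 they became 7 and 1, and without 3 h replicates 2 and 3 they became 5 and 1. The fit of the ABA arrays alone called 0 and 0, and array weights gave 5 and 1. LEA, AT4G36600 and AT3G17520 lost their calls without 24 h replicate 1 (adjusted p = 0.113, 0.109 and 0.162 in that order), 24 h replicate 3 (0.0867, 0.0668 and 0.106) or 3 h replicate 1 (0.3, 0.3 and 0.456), and without 3 h replicate 1 the difference of AT3G17520 was 1.07. AT2G46140 lost its call without 24 h replicate 1 (adjusted p = 0.101), 24 h replicate 3 (0.092) or 3 h replicate 1 (0.146).

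**Figure D2:**
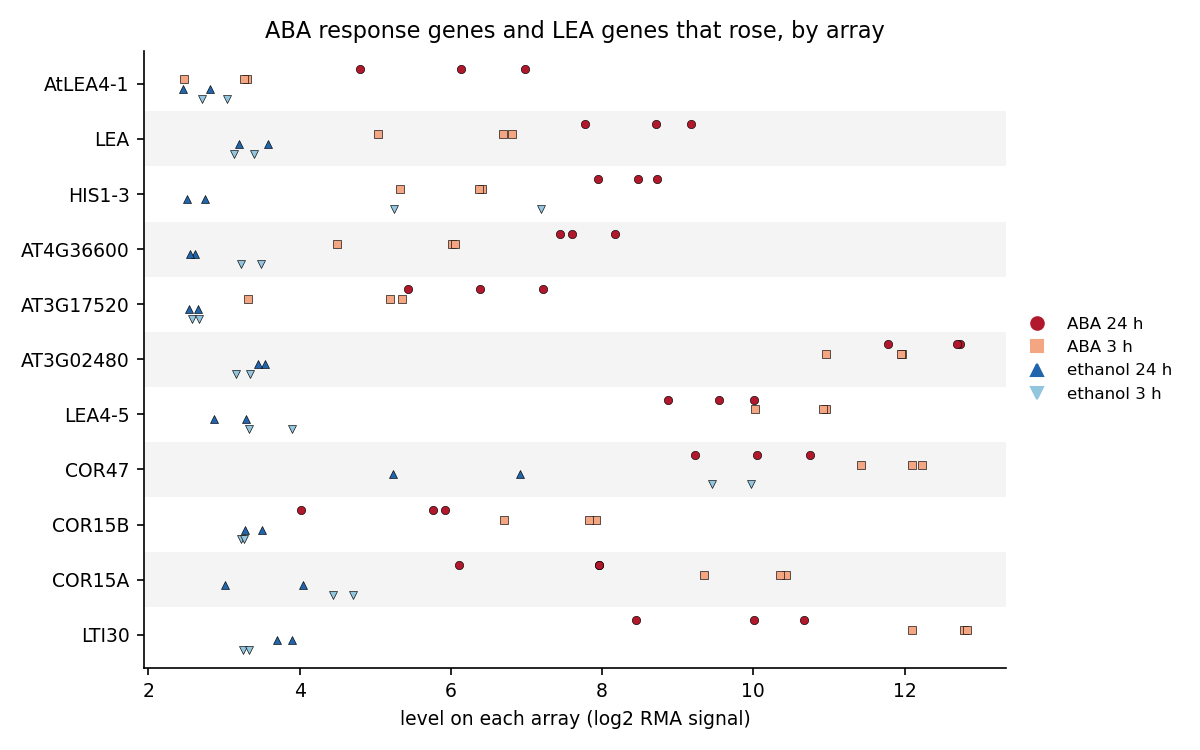
Levels (log2 RMA signal) on each array of the 7 measured ABA response genes and of the 4 LEA genes that rose, ordered by the difference between ABA 24 h and ABA 3 h; each point is 1 array. COR15A, COR15B and LTI30 lie lower on the ABA 24 h arrays than on the ABA 3 h arrays and above the ethanol arrays, and AtLEA4-1 lies apart from all other arrays at ABA 24 h.

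Genes of oil bodies and of endoplasmic reticulum bodies were grouped after their values had been seen. Of these, 2 oil body genes and 3 genes of endoplasmic reticulum bodies and jacalin lectins were higher at 24 h. Oleosins coat the oil bodies of seeds. Of the 9 seed storage and oil body genes so grouped, 2 rose and 0 fell, beside 2.11% and 1.22% of all probe sets. The oleosin gene AT2G25890 had 7.76, 5.31 and 6.97 at 24 h, against 2.66, 3.03 and 3.00 at 3 h (3.85 ± 0.52, adjusted p = 0.000591). The oleosin gene AT3G01570 had 7.17, 5.89 and 6.81 at 24 h, against 3.85, 4.39 and 4.46 at 3 h (2.49 ± 0.33, adjusted p = 0.00049). On the ethanol arrays AT2G25890 lay between 2.84 and 2.96 and AT3G01570 between 3.38 and 3.77. The other members had differences from -0.15 to 0.31, and the list's median was 0.01. Both calls held in each of the 7 fits without ABA arrays, while the fit of the ABA arrays alone called 0.

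Endoplasmic reticulum bodies are stores of beta-glucosidase in cells of the mustard family, and PYK10 is their main enzyme. Jacalin lectins such as JAL33 and JAL34 join PYK10 in complexes when a cell breaks. Of 7 such genes measured, grouped after their values had been seen, 3 rose and 0 fell, beside 2.11% and 1.22% of all probe sets. The median difference of 2.09 was that of NAI2, which did not pass the test. PYK10 had 8.11, 7.33 and 8.48 at 24 h, against 3.85, 3.39 and 3.29 at 3 h, a 20.8-fold rise (4.38 ± 0.74, adjusted p = 0.00322). JAL33 had 7.46, 7.11 and 7.96 at 24 h, against 4.18, 4.23 and 4.44 at 3 h (3.26 ± 0.53, adjusted p = 0.00279). JAL34 had 10.44, 10.37 and 10.45 at 24 h, against 8.03, 8.57 and 8.52 at 3 h (2.14 ± 0.35, adjusted p = 0.00256). The 3 calls held in each of the 7 fits without ABA arrays and in the fit of the ABA arrays alone.

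NAI2, which is needed to form these bodies, had 6.16, 4.01 and 6.66 at 24 h, against 3.60, 3.44 and 3.43 at 3 h. Its difference of 2.09 ± 0.73 did not pass the test (adjusted p = 0.139), and it passed without 24 h replicate 2 (adjusted p = 0.0216). NAI1, the factor that controls PYK10, and the lectin genes JAL22 and JAL23 had differences of -0.24, 0.30 and -0.07 and did not pass. On the ethanol arrays PYK10 was low at both times, 3.13 and 2.89 at 24 h and 3.00 and 3.92 at 3 h, and JAL34 was lower at 24 h than at 3 h, with 7.19 and 8.13 at 24 h against 8.74 and 9.10 at 3 h.

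Of 10 chitinase genes of glycosyl hydrolase family 19, enzymes that cleave fungal cell walls, 0 rose and 2 fell, beside 2.11% and 1.22% of all probe sets. The 2 that fell were AT2G43620 and AT2G43610. AT2G43620 had 5.47, 6.41 and 5.74 at 24 h, against 9.33, 9.75 and 9.72 at 3 h (-3.66 ± 0.44, adjusted p = 0.000224). AT2G43610 had 5.92, 5.21 and 5.44 at 24 h, against 8.49, 8.46 and 8.43 at 3 h (-2.94 ± 0.57, adjusted p = 0.00784), and its call was lost without 3 h replicate 1 (adjusted p = 0.058). The ethanol arrays lay between 9.53 and 9.68 for AT2G43620 and between 9.63 and 10.02 for AT2G43610, so the ABA 24 h arrays were the low ones. CHI, AT2G43570, of the same family, did not pass the test, with 11.47, 10.75 and 11.31 at 24 h against 10.91, 11.69 and 11.74 at 3 h. Genes of the lists of endoplasmic reticulum bodies, seed and oil bodies and family 19 chitinases were grouped after their values had been seen.

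Genes of mitosis were lower at 24 h. Of 14 measured, 0 rose, 9 fell and 5 did not pass the test, where 2.11% of all probe sets rose and 1.22% fell. The median difference was -1.62. Every member had its 3 arrays at 24 h below its 3 arrays at 3 h, which held for 11.4% of all probe sets. The list was chosen with earlier results of these data known. RNA was taken from whole cultures, in which fewer dividing cells and less RNA per cell cannot be told apart. Aurora kinases direct chromosome segregation. AUR2 had 5.48, 5.11 and 5.79 at 24 h, against 7.20, 7.89 and 7.94 at 3 h (-2.10 ± 0.44, adjusted p = 0.0144), and AUR3 had 3.73, 3.96 and 3.81 at 24 h, against 5.64, 5.93 and 5.55 at 3 h (-1.85 ± 0.45, adjusted p = 0.0329). AUR1 did not pass the test (-2.21 ± 0.78, adjusted p = 0.141), with 5.15, 5.90 and 5.21 at 24 h against 7.34, 8.08 and 7.75 at 3 h.

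Of the motor proteins in the mitosis list, KINESIN-12B, which works in the phragmoplast that builds the new cell wall, had 3.17, 3.29 and 3.11 at 24 h, against 4.38, 4.50 and 4.92 at 3 h (-1.35 ± 0.24, adjusted p = 0.00511). AT3G20150, of the same kinesin class, fell by 1.97 ± 0.47 (adjusted p = 0.0276). The spindle kinesin genes AT2G36200 (-1.68 ± 0.39, adjusted p = 0.0247) and AT2G28620 (-1.21 ± 0.28, adjusted p = 0.027) fell too. HTR12, the histone of the centromere, had 3.01, 3.73 and 3.05 at 24 h, against 4.30, 4.65 and 4.75 at 3 h (-1.24 ± 0.24, adjusted p = 0.00804). BUBR1, of the spindle checkpoint, fell by 1.22 ± 0.31 (adjusted p = 0.0409), and AT3G57060, a condensin subunit, by 1.5 ± 0.34 (adjusted p = 0.0234). The members that did not pass, besides AUR1, were 3xHMG-box2 (-3.16 ± 0.86, adjusted p = 0.0545) and 3xHMG-box1 (-1.71 ± 0.50, adjusted p = 0.078), which bind mitotic chromosomes, the kinetochore gene AT3G54630 (-1.56 ± 0.46, adjusted p = 0.0749) and the checkpoint gene BUB3.1 (-1.13 ± 0.31, adjusted p = 0.0561). On the 24 h arrays 3xHMG-box2 had 4.76, 5.69 and 4.76, against 8.31, 8.10 and 8.20 at 3 h.

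The number of calls in the mitosis list depended on the arrays. It was 3 without 24 h replicate 1, 24 h replicate 3 or 3 h replicate 1, 6 without 3 h replicates 2 and 3, 3 in the fit of the ABA arrays alone, and 1 with array weights. Counting 3 h replicates 2 and 3 as separate arrays called all 14. The median difference lay between -1.87 and -1.41 in the fits without ABA arrays. Of the 9 calls, those of KINESIN-12B and HTR12 held in each of these fits, AUR2 was lost without 3 h replicates 2 and 3 (adjusted p = 0.0586), and AT3G57060 was lost without each of 24 h replicates 1, 2 and 3, 3 h replicate 1, or 3 h replicates 2 and 3 (adjusted p = 0.0509 to 0.0861). AUR3, AT2G36200, AT2G28620, BUBR1 and AT3G20150 were each lost without 24 h replicate 1, 24 h replicate 3 or 3 h replicate 1, with adjusted p between 0.0611 and 0.218, and AUR3 (0.0651) and AT2G36200 (0.0753) also without 3 h replicates 2 and 3.

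On the ethanol arrays mitosis genes went the other way. Between ethanol 24 h and ethanol 3 h, 1534 probe sets rose (6.74%) and 801 fell (3.52%), and of the 14 mitosis genes 11 rose and 0 fell, with a median of 1.84. The ABA change minus the ethanol change was called lower for 937 probe sets (4.12%) and higher for 735 (3.23%), and lower for all 14 mitosis genes, with a median of -3.30. For KINESIN-12B the ethanol arrays had 5.60 and 6.0 at 24 h, against 3.69 and 3.91 at 3 h, and the difference between the changes was -3.35 ± 0.36 (adjusted p = 9.43e-05). For AUR2 they had 7.28 and 7.07 at 24 h, against 4.30 and 5.09 at 3 h (-4.58 ± 0.66, adjusted p = 0.000819). On the 3 h arrays, ABA levels of KINESIN-12B and AUR2 were above ethanol levels, and on the 24 h arrays below them. Without 1 ethanol array at a time, the number of mitosis genes called for the difference between the changes was 10 to 14, and the number that rose in ethanol was 3 to 10, lowest without ethanol 3 h replicate 1.

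**Figure D3:**
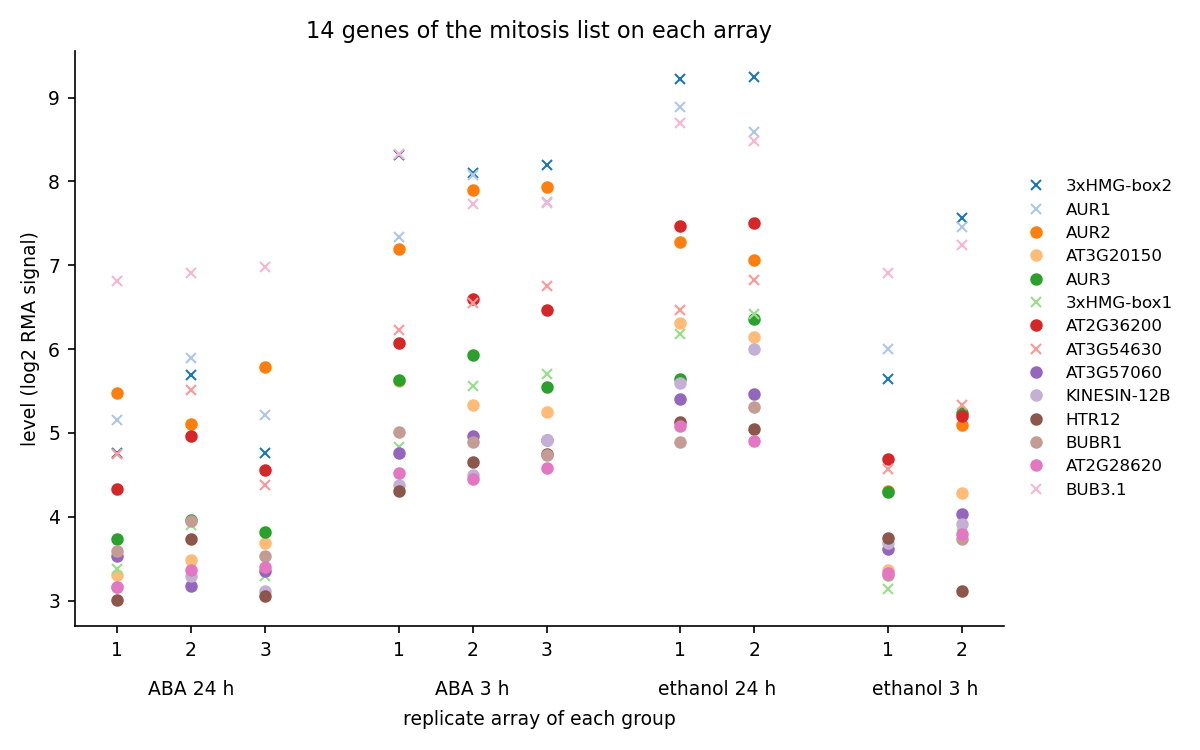
Levels (log2 RMA signal) of the 14 measured mitosis genes on each array of ABA 24 h, ABA 3 h, ethanol 24 h and ethanol 3 h; circles mark genes that passed the test between ABA 24 h and ABA 3 h and crosses those that did not. Every gene is lower on the 3 ABA 24 h arrays than on the 3 ABA 3 h arrays, and 11 of the 14 rose between ethanol 24 h and ethanol 3 h.

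Among 35 kinesin genes, grouped after their values had been seen, 0 rose and 9 fell in ABA, beside 2.11% and 1.22% of all probe sets. The median was -0.62, and 4 of the 9 are also in the mitosis list. The largest fall was that of AT3G44050, which had 2.63, 2.78 and 2.43 at 24 h, against 4.53, 5.57 and 5.62 at 3 h (-2.45 ± 0.39, adjusted p = 0.00246). AT5G60930, a chromokinesin-type gene, had 3.50, 3.74 and 3.26 at 24 h, against 5.99, 5.37 and 5.71 at 3 h (-2.26 ± 0.48, adjusted p = 0.0154). AT3G44050 held its call in each fit without ABA arrays, and AT5G60930 lost it without 24 h replicate 1 (adjusted p = 0.0531), 24 h replicate 3 (0.0595) or 3 h replicate 1 (0.124). The other 3 were AT1G72250 (-1.82 ± 0.48, adjusted p = 0.0494), AT2G22610 (-1.31 ± 0.26, adjusted p = 0.00883) and AT2G37420 (-1.10 ± 0.25, adjusted p = 0.024). AT1G72250 lost its call without 24 h replicate 1 (adjusted p = 0.167), 24 h replicate 3 (0.134), 3 h replicate 1 (0.188) or 3 h replicates 2 and 3 (0.0824), and AT2G37420 without 24 h replicate 2 (0.0637) or 3 h replicate 1 (0.11). Called kinesins numbered 2 with array weights, 3 in the fit of the ABA arrays alone, and 4, 4 and 3 without 24 h replicate 1, 24 h replicate 3 and 3 h replicate 1.

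Of 6 DNA replication genes 0 rose and 0 fell in ABA in limma, with 1 lower at an unadjusted p under 0.05 and a median of -0.33. That median was -0.08 without 3 h replicate 1, -0.16 without 24 h replicate 1, -0.51 without 24 h replicate 2 and -0.64 without 3 h replicates 2 and 3. TOPII, the DNA topoisomerase that untangles chromosomes, had 4.33, 5.23 and 4.14 at 24 h, against 7.0, 6.77 and 6.77 at 3 h (-2.32 ± 0.66, adjusted p = 0.0648, and 0.0489 without 24 h replicate 2). Of 9 core histone genes 0 rose and 0 fell, with 2 lower at an unadjusted p under 0.05. All 9 differences were below 0 (median -0.46), as were 12611 of all 22746 probe sets. Of 132 genes of the cytosolic ribosome 0 rose and 0 fell in ABA, with a median of 0.02 and differences from -0.61 to 0.82. At an unadjusted p under 0.05, 2 of the 132 were higher and 3 lower, where all probe sets had 8.81% and 8.14%. The median of the 132 lay between -0.04 and 0.11 without ABA arrays. In ethanol, 84 of the 132 genes of the cytosolic ribosome rose and 0 fell, beside 6.74% and 3.52% of all probe sets. Their median in ethanol was 0.95. The ABA change minus the ethanol change was called lower for 37 and higher for 0, beside 4.12% and 3.23% of all probe sets. Without 1 ethanol array at a time these counts for the cytosolic ribosome were 17 to 55 and 6 to 30, both lowest without ethanol 3 h replicate 2. The 37 became 15 without ABA 24 h replicate 1, 17 without ABA 24 h replicate 3 and 9 without ABA 3 h replicate 1.

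Over all probe sets, 271 of the 480 that rose in ABA and 182 of the 278 that fell also differed in the same direction from the ethanol change. The shares of all probe sets were 3.23% higher and 4.12% lower than the ethanol change. Both tests use the same ABA arrays, so this overlap is in part built in. Of those that fell in ABA, 89 rose in ethanol, 32% of the ABA decreases and 5.8% of the ethanol increases. Another 13 fell in both, 4.68% of the ABA decreases. Of those that rose in ABA, 36 (7.5%) fell in ethanol and 23 (4.79%) rose in both. Over all probe sets, 6.74% rose and 3.52% fell in ethanol. The comparison within ABA and that within ethanol share no arrays but share the pooled estimate of spread. Without 1 ethanol array at a time, the ethanol comparison called 594 to 896 probe sets in place of 2335.

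**Figure D4:**
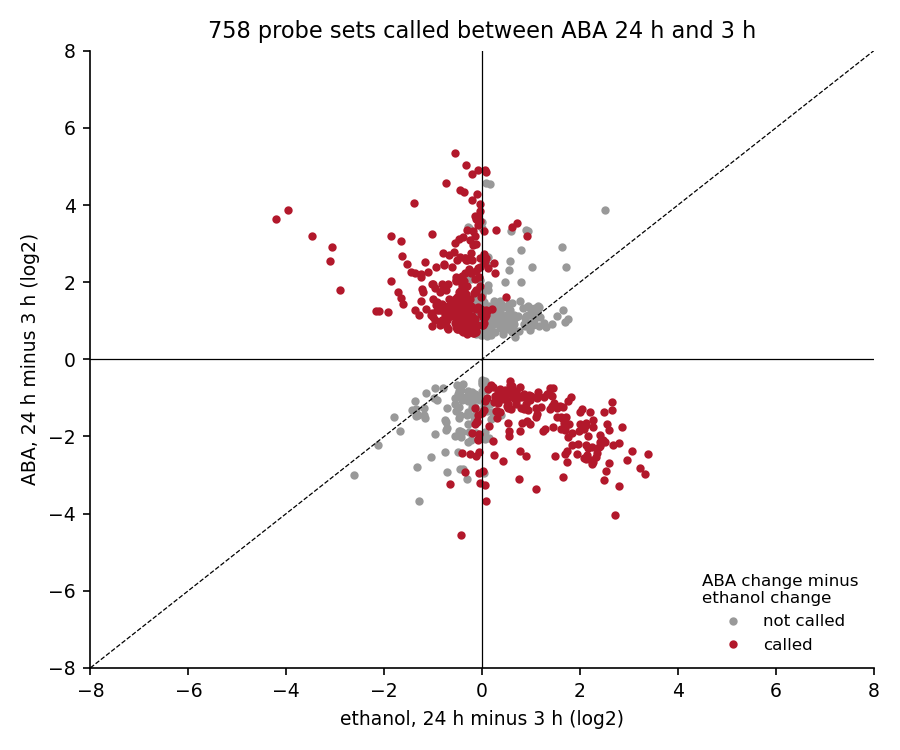
ABA 24 h minus ABA 3 h (vertical, log2) against ethanol 24 h minus ethanol 3 h (horizontal, log2) for the 758 probe sets called in ABA; red points also passed the test of the difference between both changes and the dashed line marks equal changes. Of the probe sets that fell in ABA, 89 (32%) rose in ethanol and stand in the lower right. Of all probe sets, 6.74% rose in ethanol.

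Among matched genes called in both tests, the 3 with the highest ABA change minus ethanol change fell in ethanol and rose in ABA. AT4G37180, a Myb-related transcription factor gene, had 7.59, 4.82 and 7.18 at ABA 24 h, against 3.35, 3.30 and 3.34 at ABA 3 h, and 3.55 and 3.79 at ethanol 24 h, against 7.38 and 6.88 at ethanol 3 h. The difference between the changes was 6.66 ± 1.25 (adjusted p = 0.00421), while the ABA change itself (3.19 ± 0.84, adjusted p = 0.0468) was lost without 24 h replicate 1 (0.188), 24 h replicate 3 (0.158), 3 h replicate 1 (0.188) or 3 h replicates 2 and 3 (0.0789). AT2G43535, a defensin-like gene, had 9.86, 9.74 and 9.76 at ABA 24 h, against 6.95, 6.74 and 6.84 at ABA 3 h, and 5.53 and 5.58 at ethanol 24 h, against 7.78 and 9.45 at ethanol 3 h (difference between changes 5.98 ± 0.99, adjusted p = 0.00197). AT5G24820, an aspartyl protease gene, had 5.26, 5.84 and 5.40 at ABA 24 h, against 3.10, 2.84 and 2.78 at ABA 3 h (2.55 ± 0.62, adjusted p = 0.032), with a difference between changes of 5.65 ± 0.92 (adjusted p = 0.00175). The ABA change of AT2G43535 (2.92 ± 0.67, adjusted p = 0.024) was lost without 24 h replicate 1, 24 h replicate 3, 3 h replicate 1, or 3 h replicates 2 and 3 (adjusted p = 0.051 to 0.106). That of AT5G24820 was lost without each of 24 h replicates 1, 2 and 3, 3 h replicate 1, or 3 h replicates 2 and 3 (adjusted p = 0.0714 to 0.119). Their times did not overlap within ABA, and in ethanol the 3 h arrays were the high ones.

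At the other end stood AT5G53820 (-6.77 ± 1.27, adjusted p = 0.00428), AT1G73600 (-6.29 ± 0.59, adjusted p = 6.52e-05), AT2G16270 (-6.08 ± 1.25, adjusted p = 0.00796), AT5G45700 (-6.05 ± 0.63, adjusted p = 8.96e-05) and the kinesin gene AT3G44050 (-5.84 ± 0.59, adjusted p = 6.52e-05), as ABA change minus ethanol change. AT1G73600 had 7.15 and 6.63 at ethanol 24 h, against 3.49 and 3.62 at ethanol 3 h, so its high arrays were those of ABA 3 h and ethanol 24 h. AT5G45700, for which no role is given here, had 2.09, 2.62 and 2.56 at ABA 24 h, against 4.89, 5.74 and 5.49 at ABA 3 h, and 6.50 and 5.68 at ethanol 24 h, against 2.85 and 2.89 at ethanol 3 h. Its call between ABA 24 h and ABA 3 h (-2.83 ± 0.42, adjusted p = 0.00135) held in each of the 7 fits without ABA arrays.

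OSM34, an osmotin-like defence protein gene, did not pass between ABA 24 h and ABA 3 h, with 12.33, 11.18 and 11.85 against 9.11, 10.27 and 10.28 (2.09 ± 0.73, adjusted p = 0.138). Its ethanol arrays had 3.81 and 4.28 at 24 h, against 11.07 and 9.99 at 3 h, and the difference between the changes was 8.57 ± 1.08 (adjusted p = 0.00034). HIS1-3 was also not called in ABA and differed from the ethanol change (6.11 ± 1.32, adjusted p = 0.0107), with 2.51 and 2.75 at ethanol 24 h, against 7.20 and 5.25 at ethanol 3 h. GAT1_2.1, a glutamine amidotransferase-like gene with 2 probe sets, had 4.92, 4.46 and 5.20 on the first at ABA 24 h, against 4.66, 4.33 and 4.89 at ABA 3 h (0.23 ± 1.41, adjusted p = 0.962), while ethanol had 4.34 and 4.0 at 24 h, against 11.11 and 10.49 at 3 h. The second probe set of GAT1_2.1 had a difference of -0.16 ± 0.64 in ABA.

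The lists of class III peroxidases, UDP-glycosyltransferases, expansins and XTH, and cytochrome P450 had 1 to 4 called members each. The 13 glutathione transferases had 0, and 3.33% of all probe sets were called. Class III peroxidases, which oxidise phenolics in the cell wall, had 2 that rose and 2 that fell of 55, and 1 and 0 with array weights or with the ABA arrays alone. AT2G41480 had 7.88, 8.64 and 7.78 at 24 h, against 5.47, 5.48 and 5.59 at 3 h (2.60 ± 0.36, adjusted p = 0.000664), and AT5G19890 rose by 1.92 ± 0.43 (adjusted p = 0.019). AT5G64120 had 7.41, 8.75 and 8.70 at 24 h, against 10.85, 10.53 and 10.51 at 3 h (-2.40 ± 0.56, adjusted p = 0.027), and AT5G64110 fell by 1.87 ± 0.48 (adjusted p = 0.0404). The call on AT2G41480 held in each fit without ABA arrays. AT5G19890 was lost without 24 h replicate 2 (adjusted p = 0.052) or 3 h replicate 1 (0.191), AT5G64120 without 24 h replicate 1 (0.121) or 3 h replicate 1 (0.167), and AT5G64110 without 24 h replicate 1 (0.137), 24 h replicate 3 (0.119), 3 h replicate 1 (0.0721) or 3 h replicates 2 and 3 (0.132).

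Of 51 UDP-glycosyltransferases in the list, which attach sugars to small molecules, 2 rose and 0 fell. The list did not hold AT4G09500, a called gene of this family described above. UGT71C1 had 6.11, 6.20 and 5.51 at 24 h, against 3.47, 3.31 and 3.01 at 3 h (2.63 ± 0.32, adjusted p = 0.000249), and UGT84A3 rose by 0.99 ± 0.24 (adjusted p = 0.03). XTH19, which remodels xyloglucan of the cell wall, was the 1 of 30 expansin and XTH genes that rose, with 5.58, 5.56 and 6.98 at 24 h, against 3.53, 3.49 and 3.46 at 3 h (2.54 ± 0.45, adjusted p = 0.00451). The calls on UGT71C1 and XTH19 held in each fit without ABA arrays. UGT84A3 was lost without 24 h replicate 2 (adjusted p = 0.081), 24 h replicate 3 (0.0573) or 3 h replicate 1 (0.171). CYP71B28 was the 1 of 29 cytochrome P450 probe sets that rose (0.95 ± 0.22, adjusted p = 0.0219), and was lost without 24 h replicate 1 (0.0813) or 3 h replicate 1 (0.261, difference 0.62).

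CHLI2 is a subunit of the enzyme that adds magnesium during chlorophyll synthesis. It was the 1 of 15 nuclear photosynthesis genes that rose (0.88 ± 0.22, adjusted p = 0.0404), beside 2.11% of all probe sets. It was lost without 24 h replicate 1 (adjusted p = 0.145), 24 h replicate 3 (0.123) or 3 h replicate 1 (0.31). Of 19 genes in the list of pathogenesis-related proteins 0 rose and 1 fell, beside 2.11% and 1.22% of all probe sets. The 1 that fell was the thaumatin-family gene AT1G20030 (-1.37 ± 0.33, adjusted p = 0.0311). The lowest difference in the list, -2.74, did not pass the test. That list did not hold the called genes AT2G19970, AT2G43535, AT2G43620 and AT2G43610 described above, so it does not cover the whole class. The call on AT1G20030 was lost without 24 h replicate 1 (adjusted p = 0.0646), 24 h replicate 2 (0.0839), 24 h replicate 3 (0.0554) or 3 h replicates 2 and 3. The ABA arrays alone and array weights each left 1 UDP-glycosyltransferase called, and 0 in the lists of expansin and XTH, cytochrome P450, nuclear photosynthesis and pathogenesis-related genes. In limma 0 members passed among 69 plastid-encoded genes, 30 lipid transfer genes, 17 sugar transport genes, 13 glutathione transferases, 9 autophagy genes, 7 WRKY factors and 6 probe sets of starvation and amino acid turnover. Their median differences were 0.37 for the plastid-encoded genes and between -0.14 and 0.03 for the others. The median of the plastid-encoded genes was -0.03 without 24 h replicate 1 and 0.63 without 24 h replicate 3. At an unadjusted p under 0.05, lipid transfer genes had 3 higher and 5 lower, glutathione transferases and WRKY factors 2 higher each, plastid-encoded genes 1 higher, sugar transport and starvation 1 lower each, and autophagy 0, where all probe sets had 8.81% higher and 8.14% lower.

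Several heat shock genes differed widely between replicates of 1 group. Small heat shock proteins keep unfolding proteins soluble. Of 10 heat shock genes 0 rose and 0 fell in limma, with 1 higher and 0 lower at an unadjusted p under 0.05, and the median difference was 1.5. The median was 0.81 without 24 h replicate 3, 2.49 without 24 h replicate 2, 3.13 without 3 h replicate 1 and 0.01 without 3 h replicates 2 and 3. AT2G29500 had 8.42, 6.01 and 10.55 at 24 h, against 8.43, 3.95 and 3.83 at 3 h (2.17 ± 2.38, adjusted p = 0.701). ATHSP22.0 had 8.52, 7.0 and 11.003 at 24 h, against 8.06, 5.20 and 5.44 at 3 h (2.15 ± 1.37, adjusted p = 0.451). In both, replicate 3 was the highest and replicate 2 the lowest of the 24 h arrays, and replicate 1 the highest at 3 h. The ethanol replicates of AT2G29500 were as far apart, with 6.64 and 3.20 at 24 h against 3.34 and 8.27 at 3 h. Without 3 h replicates 2 and 3 the difference of AT2G29500 in ABA was -0.10. The part of this spread in the other differences was not tested.

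**Figure D5:**
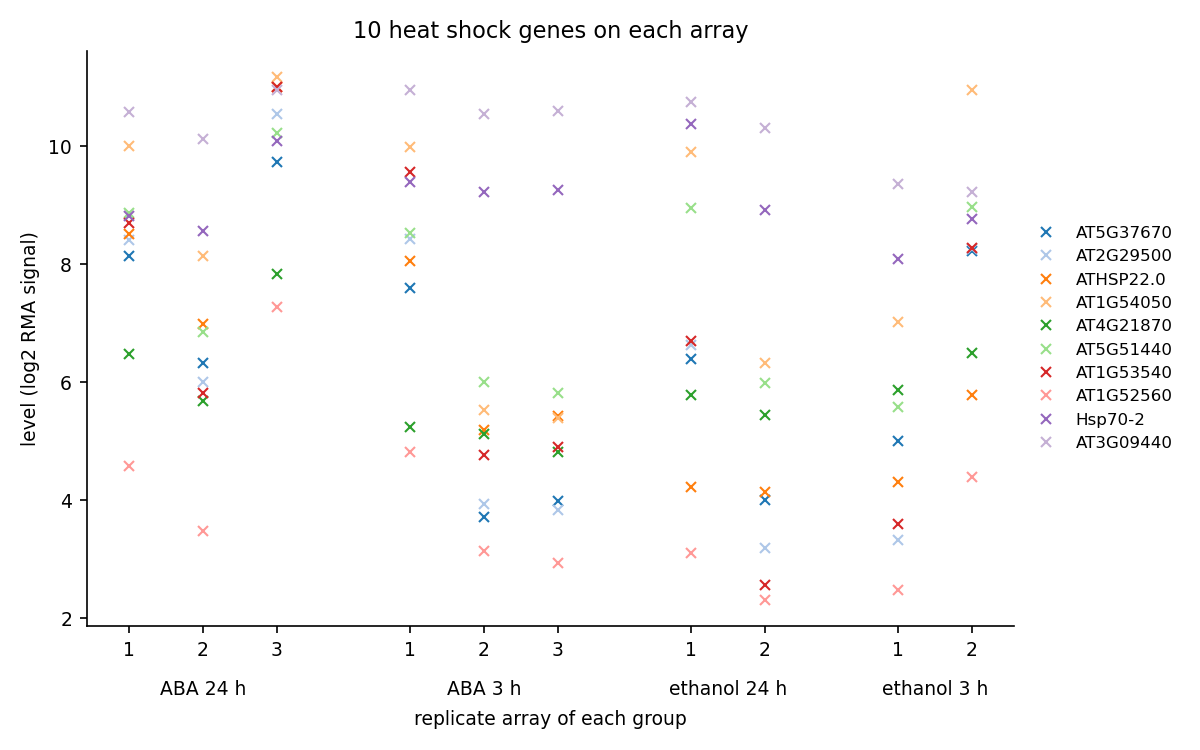
Levels (log2 RMA signal) of the 10 measured heat shock genes on each array of ABA 24 h, ABA 3 h, ethanol 24 h and ethanol 3 h; each cross is 1 gene on 1 array, and none of the genes passed the test between ABA 24 h and ABA 3 h. Within ABA 24 h the points of AT2G29500 run from 6.01 to 10.55, and within ABA 3 h from 3.83 to 8.43.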

How the data were processed

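The authors' deposited values are log2 signals made by RMA, per the submitters' processing notes. No version of RMA is stated in the sources used here. Of 22746 probe sets, 13436 matched 1 gene of the TAIR10.1 annotation and 8730 matched none. Unmatched probe sets were tested and not named. Groups followed the source names in the labels, which the titles of the 3 h arrays of ABA with a second hormone contradict; these arrays enter only through the pooled spread, which is the same under either naming. The 12 group means were fitted with limma 3.58.1 (R 4.3.3) to 25 columns, since replicates 2 and 3 of ABA at 3 h, nearly the same measurement, were averaged, as planned from earlier results of these data. Benjamini-Hochberg adjustment ran over every probe set tested. Errors beside differences are standard errors of that fit. Named genes were the 12 highest and 12 lowest matched calls without overlap and the 5 highest and 5 lowest differing from the ethanol change. The 3 highest and lowest of each list were also drawn, of which only some are described here. All ABA response members were named, and 7 genes were set by name with earlier results known. Other mitosis, LEA, kinesin and endoplasmic reticulum body genes, CHI and UGT84A3 were added once their values were seen. Members and lists were chosen with earlier results of these data known, and lists were redrawn once the annotation was read. The number of arrays limits the precision. The fit was tested on simulated data, and the alternatives are given at the end.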

Additional observations from a re-analysis of the deposited data

Results flagged for a closer look

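The change between 24 h and 3 h differed between ABA and ethanol for 56 of the genes described, by limma's test of the difference itself at an adjusted p of at most 0.0463. Over all probe sets, 3.23% were called higher and 4.12% lower in this test. Some of the 56 were chosen by this difference and others by the ABA change that is part of it, so their number is not a separate result. For each gene the ABA change minus the ethanol change is given on the log2 scale.

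It was above 0 for 24 of these genes. Genes of the stress, ABA response and LEA families were OSM34 (8.57), HIS1-3 (6.11), AT3G03270 (4.38), AtLEA4-1 (3.33) and AT4G36600 (3.24). Genes of endoplasmic reticulum bodies and of oil bodies were PYK10 (4.83), JAL33 (4.27), JAL34 (3.39), AT2G25890 (3.90) and AT3G01570 (2.25). Enzyme genes were AT5G24820 (5.65), AT1G14240 (5.36), AT3G54940 (3.76), STR18 (3.63), AT2G41480 (2.87), UGT71C1 (2.66), XTH19 (2.48) and CYP71B28 (1.43). The others were AT4G37180 (6.66), AT2G43535 (5.98), AT1G68570 (5.31), AT4G31830 (4.35), AT5G07330 (4.07) and AT5G66780 (3.82).

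It was below 0 for 32. Genes of the mitosis list outside the kinesins were BUB3.1 (-2.65), BUBR1 (-2.81), HTR12 (-2.90), AUR3 (-3.09), AT3G57060 (-3.10), AT3G54630 (-3.25), AUR1 (-4.22), 3xHMG-box1 (-4.54), AUR2 (-4.58) and 3xHMG-box2 (-5.79), and the DNA topoisomerase gene was TOPII (-5.52). Kinesin genes were AT2G28620 (-2.64), KINESIN-12B (-3.35), AT2G37420 (-3.75), AT2G22610 (-3.96), AT2G36200 (-4.23), AT3G20150 (-4.37), AT1G72250 (-4.41), AT5G60930 (-4.52) and AT3G44050 (-5.84). Enzyme genes outside these lists, family 19 chitinases included, were AT2G43610 (-2.88), BGLU15 (-2.91), AT2G43620 (-3.73), TBL36 (-4.46) and AT1G73600 (-6.29). The others were AT4G30460 (-3.32), AT2G46140 (-4.00), AT1G24600 (-4.14), AT5G17160 (-5.42), AT5G45700 (-6.05), AT2G16270 (-6.08) and AT5G53820 (-6.77).

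Of the 56, 40 kept the call in every fit that left out 1 ABA or ethanol array, or ABA 3 h replicates 2 and 3 together. Of the other 16, 10 lost it without ABA 3 h replicate 1, 11 without ethanol 3 h replicate 1, 10 without ethanol 24 h replicate 2, 8 without ethanol 3 h replicate 2, 6 without ABA 24 h replicate 3, 5 without ABA 24 h replicate 1, 4 without ethanol 24 h replicate 1, 4 without ABA 3 h replicates 2 and 3 and 1 without ABA 24 h replicate 2. These 16 were AT2G43610, AT4G36600, AUR1, BGLU15, STR18, XTH19, AtLEA4-1, AUR3, AT1G68570, CYP71B28, HIS1-3, PYK10, 3xHMG-box2, AT2G16270, AT3G01570 and AT3G54630, with adjusted p of 0.0504 to 0.175.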

How the results depend on the processing

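The count of probe sets called between ABA 24 h and ABA 3 h was 758 (480 higher and 278 lower). It was 1490 (853 and 637) with 3 h replicates 2 and 3 as 2 arrays, of which 757 were among the 758, 123 (69 and 54) with the compared groups alone, and 288 (208 and 80) with array weights. It stayed within 1.5 times of 758 with a trended robust prior, without the dimmest probe sets (a share of 0.25), with quantile normalization and at 2-fold or more. With the replicate number as a block it was 193 (92 and 101) in the compared groups alone and 1673 (943 and 730) over all 26 arrays, with 3 h replicates 2 and 3 counted separately. Deviations of same-numbered ABA arrays from their group means correlated at -0.40, -0.17 and -0.06 and those of differently numbered ones at up to 0.38. Deviations within a group sum to 0, and 3 h replicates 2 and 3 are nearly the same measurement. These correlations are therefore tied together and cannot tell whether the numbers pair the arrays. Leaving out ABA arrays gave totals of 325 to 2445, of 200 to 1030 higher and 120 to 1415 lower. The count for the ABA change minus the ethanol change was 1672 (735 and 937), within 1.5 times under each of these settings apart from left-out arrays, which gave 774 to 2483 (334 to 1133 higher and 440 to 1350 lower). The ethanol count of 2335 was 2510 with its groups alone and 594 to 896 without 1 ethanol array. Of the named probe sets 6 changed sign under some setting, and none was called there. Without ABA arrays the second probe set of GAT1_2.1 ranged from -0.48 to 0.15 (above 0 at 0.01 without 24 h replicate 3 and 0.15 without 3 h replicate 1), AT2G29500 from -0.10 (without 3 h replicates 2 and 3) to 4.44, CHI from -0.54 to 0.26, FMA from -0.63 to 0.037, NAI1 from -0.71 to 0.23 and JAL23 from -0.22 to 0.072. CHI was also 0.061 with array weights, and JAL23 was 0.028 with quantile normalization. Over named probe sets and settings, 1026 values of ABA 24 h minus 3 h kept their direction and side of the threshold, 12 changed sign, 220 lost the call and 25 gained it, and for the difference from the ethanol change 995 kept it and 67 lost it. The cause of these shifts was not tested, beyond the number of arrays left in a fit. The values carry no detection call, so which of the lowest signals lie above background is not known here.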
